A study of Mus musculus with 8 samples.

Results

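The transcripts of YAP, its partner TAZ, the DNA-binding factor TEAD1 and 7 genes widely used as readouts of their activity were followed in a line of mouse liver progenitor cells kept in 3 media. The set holds 10 genes, Yap1, Wwtr1, Tead1, Ccn1, Ccn2, Ankrd1, Ajuba, Amotl2, Lats2 and Axl, chosen by name through the RefSeq accession of each array probe. They are 10 of the 14025 genes tested and of the 20660 genes that had a matched probe. Every one of the 10 was well above background on all 8 arrays, so the filter on dim probes removed none.

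RNA came from BMEL, a bipotential line of mouse embryonic liver cells that can take a hepatocyte or a bile duct path. Total RNA was labelled with Cy3 and hybridised to 8 one-colour Agilent arrays that share 1 slide, 2 in DIFF medium, 3 in CM medium and 3 in NoRX medium. The series title names medium conditioned by human amniotic epithelial cells, but the labels do not say what CM, NoRX or DIFF stand for, and the make-up of the media is not given in the sources used here. The sample titles number the DIFF arrays 1 and 2, while the source names number both as replicate 1, and no label ties an array to a culture of its own. The p-values therefore reflect array-to-array spread, which may be technical. All groups are this 1 cell line. In such bulk RNA, fewer cells of a type and less RNA per cell cannot be told apart.

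One array stood apart. DIFF replicate 2 had 46.4% of its spots well above background, against 50.8% to 53.5% on the other arrays, and 1159 spots with an uneven local background, against 3 to 90. No probe of the 10 genes was among the uneven or saturated spots on any array. The 75th percentile of signal, by which each array was scaled, was 974 on DIFF replicate 2 and 745 on DIFF replicate 1. On the CM and NoRX arrays it was 701 to 851. After scaling, each of the 10 genes read lower on DIFF replicate 2 than on DIFF replicate 1, although its processed signal was higher there. The median gene had an SD of 0.194 (log2) between the DIFF arrays, 0.0640 between the CM arrays and 0.0638 between the NoRX arrays. This SD includes any shift that the genes of an array share through the scaling. Results on DIFF are therefore given with and without DIFF replicate 2. The first row of the slide held CM replicate 1 and the NoRX arrays, and the second row held the DIFF arrays and CM replicates 2 and 3, so no row held both DIFF and NoRX.

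YAP and TAZ are transcriptional coactivators at the end of the Hippo pathway. MST kinases activate LATS kinases, and LATS phosphorylates YAP and TAZ, which keeps them in the cytoplasm. When the kinases are quiet, at low cell density or on a stiff matrix, YAP and TAZ enter the nucleus, bind TEAD factors at GGAATG elements and drive genes of growth, matrix and the cytoskeleton, including several of their own inhibitors. In the liver the pathway limits organ size, and YAP is more active in bile duct and progenitor cells than in mature hepatocytes. Much of this control acts on the proteins, which these arrays did not measure.

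The TEAD core element was looked for in the promoters of the set, and those of 4 genes that fell in CM medium are shown. The sequences are the 250 bases before the gene's start in RefSeq (GRCm38.p6), and the capitals mark the letters GGAATG or, on the other strand, CATTCC. They lie at chr3:145649986-145650235 (minus strand) for Ccn1, chr19:36119845-36120094 (minus) for Ankrd1, chr14:54577662-54577911 (minus) for Ajuba and chr9:102717554-102717803 (plus) for Amotl2.
Ccn1: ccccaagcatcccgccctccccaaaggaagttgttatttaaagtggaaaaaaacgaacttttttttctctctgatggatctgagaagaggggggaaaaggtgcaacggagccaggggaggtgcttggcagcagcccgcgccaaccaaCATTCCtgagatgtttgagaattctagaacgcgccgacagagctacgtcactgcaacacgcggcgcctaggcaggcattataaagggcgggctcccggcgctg
Ankrd1: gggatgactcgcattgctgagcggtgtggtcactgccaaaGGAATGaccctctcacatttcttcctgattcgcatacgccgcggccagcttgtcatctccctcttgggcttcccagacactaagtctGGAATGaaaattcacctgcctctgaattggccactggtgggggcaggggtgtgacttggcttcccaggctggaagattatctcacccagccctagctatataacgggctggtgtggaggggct
Ajuba: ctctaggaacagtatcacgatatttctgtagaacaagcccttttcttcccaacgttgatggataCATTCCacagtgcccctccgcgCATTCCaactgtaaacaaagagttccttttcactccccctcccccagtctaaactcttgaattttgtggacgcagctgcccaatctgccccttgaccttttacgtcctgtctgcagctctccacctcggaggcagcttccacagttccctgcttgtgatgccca
Amotl2: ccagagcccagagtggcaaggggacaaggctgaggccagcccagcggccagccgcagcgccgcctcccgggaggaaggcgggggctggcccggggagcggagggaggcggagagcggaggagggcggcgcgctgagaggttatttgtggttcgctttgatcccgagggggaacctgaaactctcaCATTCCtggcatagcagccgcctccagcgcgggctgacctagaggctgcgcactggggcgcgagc

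Ankrd1 and Ajuba hold 2 copies each, the first with its copies starting 210 and 123 bases before the start and the second 186 and 164 bases before it. The copy of Amotl2 begins 65 bases before the start and that of Ccn1 begins 103 bases before it. For the coactivators, the kinase and the receptor, only a 30-base stretch around the element is shown, in the same build. By the probe used, their transcripts moved less between CM and NoRX, though a dimmer Lats2 probe differed by 1.58. The windows lie at chr9:8004547-8004846 for Yap1, chr3:57575861-57576160 for Wwtr1, chr14:57746074-57746373 for Lats2 and chr7:25788684-25788983 for Axl, all on the minus strand.
Yap1: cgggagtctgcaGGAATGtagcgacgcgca
Wwtr1: ggtaaactcaaaGGAATGcagataggcgct
Lats2: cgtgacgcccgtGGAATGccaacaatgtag
Axl: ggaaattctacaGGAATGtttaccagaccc

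A window of 300 bases, 250 before the start and 50 after it, was searched on both strands for the 6 letters GGAATG, which overlap no other motif searched. Of the 10 genes, 8 matched a window, all but Ccn2 and Tead1. All 8 hold the element, although Lats2 holds it in only 1 of its windows, just after the start. The element occurs in 4481 of 27025 genes with a window (16.6%) and in 1676 of the 11203 tested genes that have one (15.0%). A match describes the letters and is no measurement of binding in these cells. Among the other lists of the pathway it was found in 4 of 6 TEAD and VGLL genes, 2 of 10 Hippo kinases and adaptors, 3 of 12 upstream regulators, 2 of 12 other YAP target genes and 5 of 13 genes of the SRF and actin list.

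**Figure D1:**
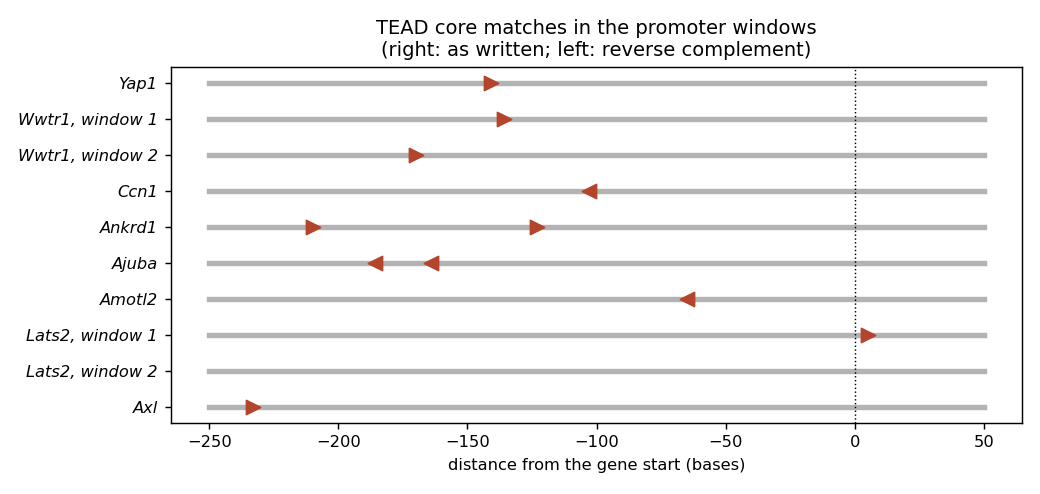
Position of the TEAD core element (arrowheads) in each promoter window of the 8 genes that have one, in bases from the gene start (dotted line). The element lies before the start in 7 of the 8 genes and 5 bases after it in Lats2.

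In CM medium the coactivator transcripts were higher and 5 of the 7 readout genes were lower than in NoRX. Against NoRX, limma called 8 of the 10 genes, where it called 52.2% of all 14025 genes. Yap1 and Wwtr1 rose, as did 26.9% of all genes, and Tead1, Ccn1, Ccn2, Ankrd1, Ajuba and Amotl2 fell, as did 25.3%. The median log2 difference of the 10 was -0.59, against 0.01 over all genes. The CM and NoRX arrays did not overlap for 8 of the 10, and for 71.0% of all genes. Within the first row of the slide, on CM replicate 1 and the NoRX arrays, the count was again 2 higher and 6 lower.

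DIFF medium gave a mixed picture against NoRX. Of the 10, 6 were called, against 42.2% of all genes: Tead1, Amotl2 and Axl rose (14.0% of all genes) and Yap1, Ccn1 and Ccn2 fell (28.2%). Their median log2 difference was 0.05, against -0.10 over all genes. The arrays of DIFF and NoRX did not overlap for 6 of the 10 and for 57.0% of all genes. Without DIFF replicate 2, the count was 4 higher and 2 lower, and 3767 genes were called higher and 3368 lower over the array, against 1965 and 3949 with it. With arrays centred on their median in place of the 75th percentile these were 2401 and 2133, and 4 of the 10 were higher and 1 lower. Slide row and medium cannot be told apart in this comparison without the CM arrays.

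Between DIFF and CM, 9 of the 10 were called, against 59.2% of all genes. Tead1, Ccn1, Ccn2, Ankrd1, Ajuba, Amotl2 and Axl were higher in DIFF, as were 23.6% of all genes. Yap1 and Wwtr1 were lower in DIFF, as were 35.6%. The median log2 difference was 0.84, against -0.11 over all genes, and the arrays did not overlap for 9 of the 10 and for 68.3% of all genes. The count was the same, 7 higher and 2 lower, without DIFF replicate 2 and within the second row of the slide. Over all genes, 3311 were called higher and 4987 lower, and 3932 and 3183 with arrays centred on their median, where 7 of the 10 were higher and 1 lower. Each pair of comparisons shares the arrays of 1 medium, so their differences are not independent of each other.

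**Figure D2:**
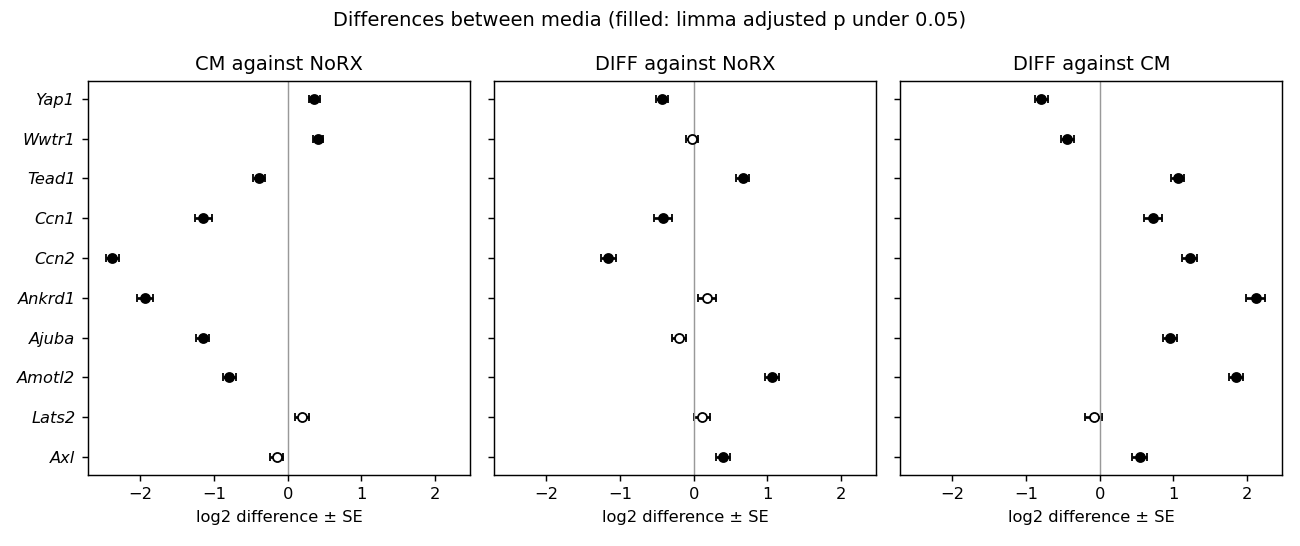
Log2 difference ± SE of each of the 10 genes, one panel for each comparison, with filled points where limma's adjusted p passed 0.05. In CM against NoRX the 6 points left of 0 that passed run to -2.38 (Ccn2), while in DIFF against CM the 7 that passed to the right run to 2.12 (Ankrd1).

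Levels below are log2 signals relative to the 75th percentile of their array, so that levels of different probes cannot be set against each other, and differences are log2 differences with their SE. Yap1, the coactivator that LATS kinases restrain, read 4.06 and 3.87 on the DIFF arrays, 4.71, 4.79 and 4.76 on the CM arrays, and 4.46, 4.42 and 4.29 on the NoRX arrays. The 3 media did not overlap, with CM highest and DIFF lowest. Yap1 was 1.29-fold higher in CM than in NoRX (0.36 ± 0.075, adjusted p = 0.00192). It was 1.34-fold lower in DIFF than in NoRX (-0.43 ± 0.084, adjusted p = 0.00178) and 1.73-fold lower in DIFF than in CM (-0.79 ± 0.084, adjusted p = 1.055e-05). Differences of this size were common: 44.3% of all genes differed more between CM and NoRX. The DIFF differences of Yap1 were -0.33 against NoRX and -0.69 against CM without DIFF replicate 2. The CM call was lost with the slide row as a block (0.32, adjusted p = 0.0619), and the DIFF call against NoRX with arrays centred on their median (-0.27, adjusted p = 0.158).

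Wwtr1, which encodes TAZ, the partner and close relative of YAP, read 0.88 and 0.77 on the DIFF arrays, 1.20, 1.26 and 1.33 on the CM arrays, and 0.89, 0.77 and 0.88 on the NoRX arrays. The CM arrays were above all the others, and DIFF and NoRX overlapped. The gene was 1.33-fold higher in CM than in NoRX (0.41 ± 0.074, adjusted p = 0.000723) and 1.35-fold lower in DIFF than in CM (-0.44 ± 0.083, adjusted p = 0.000826). DIFF and NoRX differed by -0.02 ± 0.083 (adjusted p = 0.837). Without DIFF replicate 2 the difference between DIFF and CM was -0.38, and median centring ended that call (-0.27, adjusted p = 0.122).

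Tead1, a DNA-binding partner through which the coactivators reach their genes, read 2.28 and 2.11 on the DIFF arrays, 1.08, 1.10 and 1.22 on the CM arrays, and 1.56, 1.41 and 1.62 on the NoRX arrays. Its order of media, DIFF over NoRX over CM, was the reverse of Yap1, without overlap. It was 1.31-fold lower in CM than in NoRX (-0.39 ± 0.082, adjusted p = 0.00194), and 1.59-fold higher in DIFF than in NoRX (0.67 ± 0.092, adjusted p = 0.000136). In DIFF it was 2.08-fold higher than in CM (1.06 ± 0.092, adjusted p = 1.84e-06). These were 0.75 against NoRX and 1.14 against CM without DIFF replicate 2. Of its 3 probes, the brightest was used. The next probe differed by -0.31 between CM and NoRX (adjusted p = 0.156), by 0.74 between DIFF and NoRX (adjusted p = 0.0114) and by 1.06 between DIFF and CM (adjusted p = 0.00092), in the fit over all probes. The third was well above background on 3 arrays only, and the mean of the 3 probes did not pass in CM against NoRX (-0.44, adjusted p = 0.108).

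The secreted matrix proteins CCN1 and CCN2 are the most used readouts of YAP and TEAD. Ccn2, formerly Ctgf, read 5.30 and 5.15 on the DIFF arrays, 4.16, 3.82 and 4.02 on the CM arrays, and 6.34, 6.39 and 6.42 on the NoRX arrays. The media were far apart, with NoRX highest, DIFF between and CM lowest. Its processed signal spanned 29390 to 34601 in DIFF, 11064 to 14523 in CM and 60187 to 62024 in NoRX, with no saturated spot. Ccn2 was 5.22-fold lower in CM than in NoRX (-2.38 ± 0.089, adjusted p = 8.63e-09), and only 1.88% of all genes differed more. It was 2.23-fold lower in DIFF than in NoRX (-1.16 ± 0.099, adjusted p = 2.90e-06) and 2.34-fold higher in DIFF than in CM (1.22 ± 0.099, adjusted p = 1.08e-06). Without DIFF replicate 2 the DIFF differences were -1.08 against NoRX and 1.30 against CM.

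Ccn1, formerly Cyr61, read 2.17 and 1.79 on the DIFF arrays, 1.46, 1.14 and 1.15 on the CM arrays, and 2.37, 2.42 and 2.38 on the NoRX arrays. It kept the order of Ccn2 without overlap, but the DIFF arrays lay closer to NoRX. They were 0.38 apart from each other after scaling, while the processed signals before scaling were close, 3342 and 3363. Ccn1 was 2.21-fold lower in CM than in NoRX (-1.14 ± 0.11, adjusted p = 8.15e-06). In DIFF it was 1.66-fold higher than in CM (0.73 ± 0.12, adjusted p = 0.000368), or by 0.92 (log2) without DIFF replicate 2. Against NoRX it was 1.33-fold lower in DIFF (-0.41 ± 0.12, adjusted p = 0.0189). That call rests on few arrays: it was lost without DIFF replicate 2 (-0.23, adjusted p = 0.12) and without NoRX replicate 2 (-0.40, adjusted p = 0.0516). It was lost as well with the slide row as a block (-0.10, adjusted p = 0.767), with median centring (-0.26, adjusted p = 0.0894) and with array weights (-0.42, adjusted p = 0.246).

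Ankrd1, an ankyrin repeat protein of the nucleus and the sarcomere and a direct YAP target, read 2.48 and 2.13 on the DIFF arrays, 0.40, 0.0024 and 0.15 on the CM arrays, and 2.07, 2.13 and 2.17 on the NoRX arrays. The CM arrays lay far below the others, and DIFF and NoRX overlapped. It was 3.83-fold lower in CM than in NoRX (-1.94 ± 0.11, adjusted p = 2.21e-07), a difference that 3.26% of all genes exceeded. Between DIFF and CM it had the largest difference of the set, 4.34-fold higher in DIFF (2.12 ± 0.13, adjusted p = 9.35e-08), or by 2.30 (log2) without DIFF replicate 2. DIFF and NoRX differed by 0.18 ± 0.13 (adjusted p = 0.275), which passed the threshold without DIFF replicate 2 (0.36, adjusted p = 0.0385) and with median centring (0.34, adjusted p = 0.0326).

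**Figure D3:**
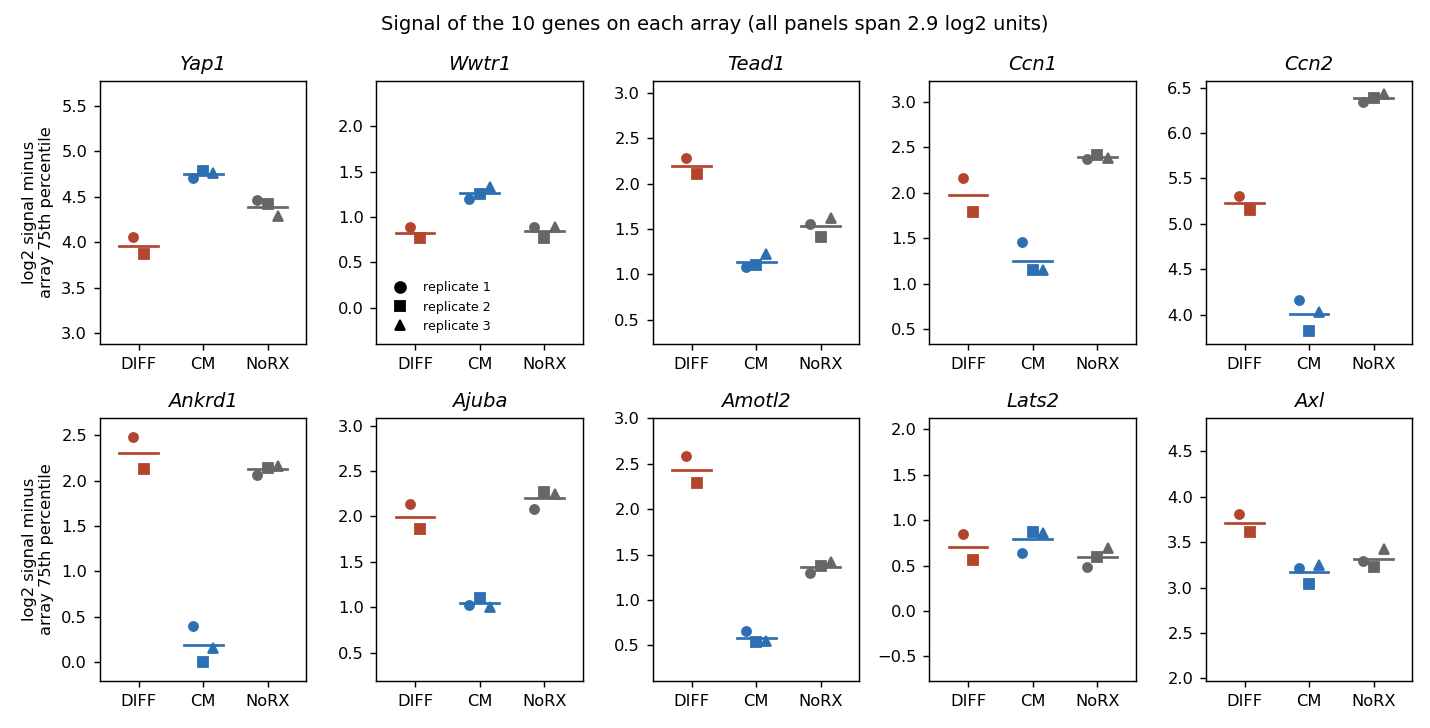
Log2 signal of each gene relative to the array's 75th percentile, for DIFF, CM and NoRX arrays, with 1 symbol for each array and a bar at the mean of each medium. All panels span the same number of log2 units; Ccn1, Ccn2, Ankrd1, Ajuba and Amotl2 have their CM arrays at the bottom, and Yap1 and Wwtr1 have theirs at the top.

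Ajuba and Amotl2 encode proteins of cell junctions that act back on the pathway. AJUBA, a LIM-domain protein, binds LATS kinases and restrains them. Ajuba read 2.14 and 1.86 on the DIFF arrays, 1.02, 1.11 and 1.01 on the CM arrays, and 2.09, 2.27 and 2.25 on the NoRX arrays. The CM arrays were low, and DIFF and NoRX overlapped. It was 2.23-fold lower in CM than in NoRX (-1.15 ± 0.087, adjusted p = 1.36e-06) and 1.94-fold higher in DIFF than in CM (0.95 ± 0.098, adjusted p = 7.65e-06), or by 1.09 (log2) without DIFF replicate 2. DIFF and NoRX differed by -0.20 ± 0.098 (adjusted p = 0.122), and this passed without DIFF replicate 1 (-0.34, adjusted p = 0.00506) and with quantile normalization (-0.23, adjusted p = 0.0483).

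AMOTL2, an angiomotin, holds YAP at junctions and is induced by it. Amotl2 read 2.58 and 2.28 on the DIFF arrays, 0.65, 0.53 and 0.55 on the CM arrays, and 1.30, 1.38 and 1.42 on the NoRX arrays. The media did not overlap: like Tead1 and unlike Ccn1 and Ccn2, it was highest in DIFF. It was 1.73-fold lower in CM than in NoRX (-0.79 ± 0.087, adjusted p = 2.30e-05). It was 2.10-fold higher in DIFF than in NoRX (1.07 ± 0.097, adjusted p = 5.12e-06) and 3.62-fold higher in DIFF than in CM (1.86 ± 0.097, adjusted p = 3.19e-08). Without DIFF replicate 2 the DIFF differences were larger, 1.22 against NoRX and 2.01 against CM.

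Lats2, the kinase that phosphorylates YAP and TAZ and is itself induced by them, varied least of the set by its brighter probe, by 0.38 log2 units over the 8 arrays. That probe read 0.85 and 0.56 on the DIFF arrays, 0.64, 0.87 and 0.86 on the CM arrays, and 0.49, 0.59 and 0.70 on the NoRX arrays. All 3 media overlapped. The differences were 0.20 ± 0.10 between CM and NoRX (adjusted p = 0.125), 0.12 ± 0.11 between DIFF and NoRX (adjusted p = 0.435) and -0.08 ± 0.11 between DIFF and CM (adjusted p = 0.562). The first passed the threshold when either DIFF array was left out of the fit and when the DIFF arrays were averaged to 1 sample. It also passed when fitted on CM and NoRX alone (adjusted p = 0.0442) and with array weights (adjusted p = 0.0159).

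A dimmer probe for another Lats2 accession had differences of the same signs but larger. It read -2.95 and -4.12 on the DIFF arrays, -2.77, -2.49 and -2.70 on the CM arrays, and -4.03, -4.12 and -4.54 on the NoRX arrays. The CM arrays were high and the DIFF arrays disagreed with each other. In the fit over all 30307 probes it differed by 1.58 ± 0.28 between CM and NoRX (adjusted p = 0.00156), by 0.70 between DIFF and NoRX (adjusted p = 0.125) and by -0.88 between DIFF and CM (adjusted p = 0.0433). With the mean of both probes, Lats2 was higher in CM than in NoRX (0.89, adjusted p = 0.00108) and lower in DIFF than in CM (-0.48, adjusted p = 0.0441), so the calls of Lats2 differed between its probes.

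**Figure D4:**
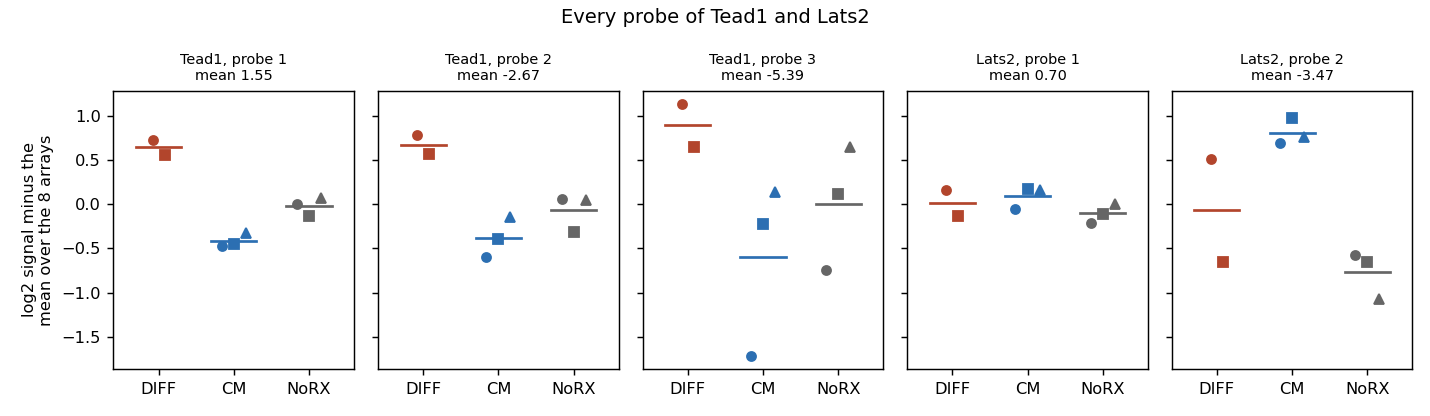
Log2 signal of each probe of Tead1 and Lats2 minus its mean over the 8 arrays, for DIFF, CM and NoRX arrays, with 1 symbol for each replicate number and a bar at the mean of each medium. All 3 Tead1 probes have their DIFF mean highest and their CM mean lowest, whereas the Lats2 probes differ, with CM 0.20 over NoRX for the first and 1.58 for the second.

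Axl, a receptor tyrosine kinase bound by GAS6 and a YAP target of liver cancer cells, read 3.81 and 3.61 on the DIFF arrays, 3.21, 3.04 and 3.25 on the CM arrays, and 3.29, 3.23 and 3.42 on the NoRX arrays. The DIFF arrays were above all the others, and CM and NoRX overlapped. It was 1.31-fold higher in DIFF than in NoRX (0.39 ± 0.096, adjusted p = 0.00659) and 1.46-fold higher in DIFF than in CM (0.54 ± 0.096, adjusted p = 0.000524). CM and NoRX differed by -0.15 ± 0.086 (adjusted p = 0.176), which passed the threshold only with quantile normalization (adjusted p = 0.0417). Without DIFF replicate 2 the DIFF differences were 0.49 against NoRX and 0.64 against CM. The DIFF call against NoRX was lost with the slide row as a block (0.46, adjusted p = 0.0946) and with array weights (0.41, adjusted p = 0.185).

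The readout genes did not share 1 order of media. Ccn1 and Ccn2 ran NoRX, DIFF, CM from high to low, while Tead1 and Amotl2 ran DIFF, NoRX, CM. Ankrd1 and Ajuba had CM lowest with DIFF and NoRX not told apart, and Axl had DIFF highest with CM and NoRX not told apart. Lats2 had none that its first probe could tell apart, and Yap1 and Wwtr1 had CM highest. The genes with the most similar pattern over the 8 arrays, by the root mean square difference of centred log2 values among 11527 genes, were Cdc42ep2 (0.0507), H3c13 (0.0650) and Rmrp (0.0773) for Ccn1. For Ccn2 they were Prr32 (0.106), Hpdl (0.138) and Acnat2 (0.147), and for Ankrd1 they were Mcm5 (0.141), Tfrc (0.144) and Cd59a (0.154). None of these 9 belongs to the set.

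The rest of the pathway was read from lists of genes by role. Each count stands against the share of all genes called higher and lower, which was 26.9% and 25.3% in CM against NoRX, 14.0% and 28.2% in DIFF against NoRX, and 23.6% and 35.6% in DIFF against CM. Of 15 upstream regulators and scaffolds, which link junctions and polarity to the kinases, 11 were tested, and 9 fell and none rose in CM against NoRX (median -0.63). The 4 with the largest differences were Amotl1, an angiomotin (-1.19, adjusted p = 1.11e-05), Ptpn14, a phosphatase that binds YAP (-1.01, adjusted p = 6.29e-05), Nf2, the tumour suppressor merlin (-0.88, adjusted p = 4.28e-06), and Wwc2, a KIBRA relative (-0.74, adjusted p = 1.37e-05). In DIFF against NoRX 1 rose and 3 fell (median -0.16): Wtip, a relative of AJUBA (0.82, adjusted p = 1.56e-05), Amot (-0.58, adjusted p = 0.000565), Dlg5 (-0.47, adjusted p = 0.000765) and Nf2 (-0.37, adjusted p = 0.00572). In DIFF against CM 8 rose and 1 fell (median 0.49), led by Amotl1 (1.37, adjusted p = 5.07e-06), Wtip (1.30, adjusted p = 2.04e-07), Ptpn14 (0.95, adjusted p = 0.000171) and Wwc2 (0.58, adjusted p = 0.000139), with Dlg5 the one that fell (-0.51, adjusted p = 0.000251).

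Among 12 Hippo kinases and adaptors, 1 rose and 4 fell in CM against NoRX (median 0.01), against 26.9% and 25.3% of all genes. Stk38l, an NDR kinase related to LATS, rose (1.06, adjusted p = 8.88e-07), and its relative Stk38 fell (-0.60, adjusted p = 0.000132), as did the kinase Taok2 (-0.53, adjusted p = 0.00187) and the kinase adaptor Mob1b (-0.50, adjusted p = 0.00228). In DIFF against NoRX none rose (14.0% of all genes) and 2 fell (28.2%), with a median of -0.18: Stk38l (-0.78, adjusted p = 2.14e-05) and the MST kinase Stk3 (-0.53, adjusted p = 0.00157). In DIFF against CM 3 rose and 2 fell (23.6% and 35.6% of all genes; median -0.01): Stk38l (-1.84, adjusted p = 1.05e-08) and Stk3 (-0.77, adjusted p = 6.61e-05) fell, and Taok2 (0.72, adjusted p = 0.000429), Map4k4 (0.37, adjusted p = 0.00349) and Stk38 rose. Lats1, the other LATS kinase, differed by 0.09 between CM and NoRX (adjusted p = 0.628), by -0.31 between DIFF and NoRX (adjusted p = 0.151) and by -0.40 between DIFF and CM (adjusted p = 0.0516).

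Of 7 TEAD and VGLL genes beside Tead1, 4 were tested and Vgll1, Vgll2 and Vgll3 were below the filter. In CM against NoRX 2 fell and none rose (25.3% and 26.9% of all genes; median -0.60): Vgll4, which competes with YAP for TEAD (-1.06, adjusted p = 2.37e-05), and Tead2 (-0.79, adjusted p = 6.09e-06). The same 2 fell in DIFF against NoRX, as did 28.2% of all genes (median -0.38), Vgll4 by -0.89 (adjusted p = 0.000237) and Tead2 by -0.69 (adjusted p = 4.43e-05). In DIFF against CM limma called none of the 4 (median 0.16), and 1 had an unadjusted p under 0.05, Tead3 (0.46, adjusted p = 0.0595). Of the 4, 3 were called higher in DIFF than in CM with normexp background correction, 2 with quantile normalization and 1 with median centring. Tead2 fell in DIFF against NoRX, where Tead1 rose.

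The 18 other YAP target genes, all tested, moved in both directions. In CM against NoRX 4 rose and 6 fell (26.9% and 25.3% of all genes; median -0.14), with Tgfb2, a growth factor, higher (2.02, adjusted p = 2.09e-06) and Edn1, endothelin (-1.79, adjusted p = 7.89e-05), Igfbp3 (-1.30, adjusted p = 1.46e-07) and the survivin gene Birc5 (-1.24, adjusted p = 3.28e-06) lower. In DIFF against NoRX 4 rose and 9 fell, against 14.0% and 28.2% of all genes (median -0.54, or -0.29 with Edn1 and Rbms3 at their bounds). Edn1 was well above background on 2 of the 3 CM arrays and on none of the DIFF arrays. It was at least 5.42-fold lower in DIFF than in NoRX, a bound taken against the dimmest signal that is well above background on the DIFF arrays. Its adjusted p of 5.05e-07 belongs to the measured difference of -3.79 and not to the bound. The EGFR ligand Areg (-2.31, adjusted p = 4.04e-08), Igfbp3 (-2.20, adjusted p = 3.60e-09) and Thbs1 (-1.80, adjusted p = 2.60e-06) fell too. In DIFF against CM 4 rose and 10 fell, against 23.6% and 35.6% of all genes (median -0.77, or -0.57 with Edn1 and Rbms3 at their bounds). Areg (-2.83, adjusted p = 4.40e-09), Tgfb2 (-2.13, adjusted p = 1.56e-06) and Edn1 (at least 1.57-fold) were lower, and Birc5 was higher (2.01, adjusted p = 8.18e-08). The adjusted p of Edn1, 5.33e-05, belongs to its measured difference of -2.00. More of this list fell than rose in DIFF against CM, whereas 7 of the 10 genes rose.

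SRF and its actin-regulated coactivators share several targets with YAP, so genes of that programme and of the actin cytoskeleton were set beside the 10. Of 15, 12 were tested, and Acta2, Cnn1 and Myl9 were below the filter. In CM against NoRX 1 rose and 5 fell, against 26.9% and 25.3% of all genes (median -0.20): Cnn2 (-0.68, adjusted p = 6.16e-05), Flna (-0.53, adjusted p = 0.00029) and Tpm2 (-0.50, adjusted p = 0.00026) were among those that fell, and the one that rose, Actg2, was well above background on 1 CM array and no NoRX array (median -0.21 without it). In DIFF against NoRX none rose and 8 fell, against 14.0% and 28.2% of all genes (median -0.43), led by Flna (-0.99, adjusted p = 6.23e-06), Tpm1 (-0.87, adjusted p = 7.89e-06), Tpm2 (-0.64, adjusted p = 0.000106) and Tagln (-0.56, adjusted p = 0.0117). With median centring this became 1 higher and 3 lower (median -0.27), and with the slide row as a block none higher and 3 lower. In DIFF against CM 2 rose and 4 fell, against 23.6% and 35.6% of all genes (median -0.18), with Tpm1 (-0.91, adjusted p = 3.13e-06), Flna (-0.46, adjusted p = 0.00124) and Zyx (-0.44, adjusted p = 0.00114) lower and Cnn2 higher (0.60, adjusted p = 0.000286).

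**Figure D5:**
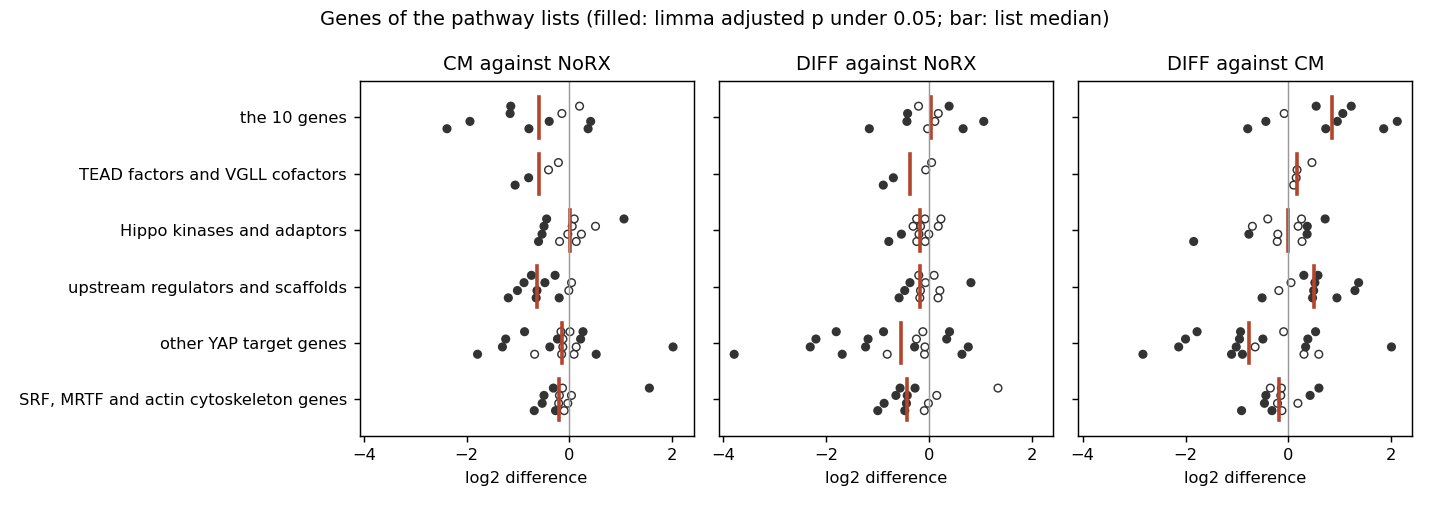
Log2 difference of every tested gene of the set and of the 5 pathway lists (points, filled where limma's adjusted p passed 0.05) with the list median as a bar, one panel for each comparison; Edn1, Rbms3 and Actg2 are drawn at their measured differences, although not above background in DIFF (Edn1, Rbms3) or NoRX (Actg2). The upstream regulators have their median at -0.63 in CM against NoRX and 0.49 in DIFF against CM, the 10 genes have theirs at -0.59 and 0.84, and the other YAP target genes at -0.14 and -0.77.

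Leaving out DIFF replicate 2 moved some of these counts, also between CM and NoRX, where the arrays are the same and the estimated spread is not. In CM against NoRX it gave 3 higher and 5 lower kinases and adaptors, 4 lower TEAD and VGLL genes, 10 lower other targets and 9 lower SRF and actin genes. In DIFF against NoRX it gave 2 higher kinases and 3 higher upstream regulators. In DIFF against CM it gave 6 higher kinases, 2 higher TEAD and VGLL genes and 9 higher upstream regulators. Over all genes the same fit called 9306 in CM against NoRX, 7135 in DIFF against NoRX and 9087 in DIFF against CM, against 7326, 5914 and 8298 with that array. Median centring gave 2 higher and 1 lower upstream regulators in DIFF against NoRX, and 6 higher kinases and 1 lower SRF and actin gene in DIFF against CM.

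Markers of cell types were read beside these results. Liver progenitor markers were present, with Krt8, Krt18, Krt19, Afp, Alb, Epcam, Hnf4a and Sox9 well above background on all arrays, Prom1 on 7 arrays and Dlk1 on 1. Their summed signal relative to the array's 75th percentile was 1085 to 1369 in DIFF, 1207 to 1303 in CM and 1587 to 1692 in NoRX. Krt8, Krt18 and Krt19 made up most of that sum in every medium. Of the 9 tested, 2 rose and 7 fell in DIFF against NoRX (14.0% and 28.2% of all genes). In CM against NoRX 4 rose and 5 fell (26.9% and 25.3% of all genes). The albumin gene Alb was higher in DIFF than in NoRX by 8.87 and higher in CM than in NoRX by 3.29 (log2 differences, adjusted p = 4.25e-10 and 5.53e-07), and Afp was higher in DIFF than in NoRX by 2.19 (adjusted p = 2.08e-08). The markers of this list that fell most in DIFF against NoRX were Prom1, well above background on 1 DIFF array (-2.99, adjusted p = 1.06e-07), Epcam (-1.84, adjusted p = 4.45e-07) and Sox9 (-1.64, adjusted p = 1.02e-07). In CM against NoRX, Epcam (1.23, adjusted p = 5.38e-06) and Prom1 (0.52, adjusted p = 0.0141) rose instead, while Sox9 fell (-0.50, adjusted p = 0.000442). Hnf4a fell in DIFF (-0.54) and in CM (-0.73) against NoRX, and Krt8, Krt18 and Krt19 fell in both as well.

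Of 9 fibroblast and stellate cell markers, 1 to 3 were above background on the DIFF arrays, 5 or 6 on the CM arrays and 5 or 6 on the NoRX arrays, and Pdgfrb, Lum and Lrat on none. Their sum was 0.262 to 0.370 in DIFF, 1.58 to 1.89 in CM and 0.714 to 0.749 in NoRX. In CM against NoRX the genes of this list went both ways, with Des (3.83-fold, adjusted p = 7.35e-07) and Pdgfra (2.38-fold, adjusted p = 0.000117) higher and the collagen gene Col1a1 lower (1.58-fold, adjusted p = 0.0067). Endothelial markers summed to 8.31 to 9.77 in DIFF, 10.5 to 11.4 in CM and 10.1 to 12.3 in NoRX (2 to 5 of 7 above background), with Tek and Erg above background on no array. Kdr made up most of that sum; Lyve1, above background on no CM array, was higher in DIFF than in NoRX (3.58, adjusted p = 1.37e-05), and Cdh5 was higher in CM than in NoRX (1.85, adjusted p = 0.0101). Macrophage markers summed to 8.58 to 10.3 in DIFF, 14.7 to 15.5 in CM and 13.7 to 15.1 in NoRX (2 to 4 of the 6 with a probe), with Adgre1 above background on no array. Itgam made up most of the macrophage sum. Ankrd1 is also a heart and muscle gene. Muscle markers summed to 15.2 to 16.9 in DIFF, 24.3 to 26.1 in CM and 38.3 to 42.3 in NoRX (3 or 4 of 7 above background), and all 3 that were tested fell in DIFF and in CM against NoRX (28.2% and 25.3% of all genes), with Myog and Mybpc3 above background on no array. Tnnt2 made up nearly all of the muscle sum. The part of any of these in the differences of the 10 genes was not tested.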

How the data were processed

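Total RNA of 8 BMEL samples was measured on one-colour Agilent arrays. The deposited scanner files hold linear intensity values (processed signal), from which background and spatial trends had been removed array by array, per the file headers. The software was Agilent Feature Extraction 11.0.1.1, per the submitters' processing notes. The other columns used are spot flags and local backgrounds, also as deposited. A deposited table of the series equals these intensities exactly (largest difference 0, column medians 22.2 to 31.3), and its use moved nothing.

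From these, log2 signal minus each array's 75th percentile over non-control spots was computed in R 4.3.3. Control and outlier spots were left out and spots of a probe averaged. Of 55681 probes, 27235 matched a RefSeq accession (GRCm38.p6 table) and named 20660 genes. The array was designed on another build, mm9, so its probes are given no coordinates, and promoter coordinates are those of the RefSeq table. Where a gene had several probes, the brightest on average was used, and a probe had to be well above background on at least 2 arrays. One limma 3.58.1 fit (eBayes with trend) held all 8 arrays, so DIFF borrows its spread from the others. Tests are two-sided, with Benjamini-Hochberg adjustment over 14025 genes and a threshold of 0.05. The script was tested on simulated data with known differences. The simulation gave all arrays of a gene the same spread, so it does not cover the wider spread of the DIFF arrays. The number of arrays limits the precision.

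The 10 genes and the lists were chosen with earlier results of these data known. Named are all 10 genes, up to 4 called genes of each list and comparison by size of difference, and the 3 genes most similar to Ccn1, Ccn2 and Ankrd1, leaving out clone and predicted names; Stk38 and Lats1 in some comparisons, Tead3, Dlg5, Rbms3 and the cell type markers were added after their values were seen. Alternatives were the background correction (normexp on the median signal with an offset of 50, since the mean signal is not among the columns used here), normalization, filters, probe choice, array weights, slide row, replicate block, averaging the DIFF arrays and leaving out each array. Figures were drawn with matplotlib 3.10.9.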

Additional observations from a re-analysis of the deposited data

How the results depend on the processing

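Of the 710 differences of the 10 genes that were recomputed under an alternative, 678 kept their direction and their side of the threshold, 12 passed it newly, 11 no longer passed and 9 changed sign. Part of this tally was fixed in advance. The deposited table, the filters on dim probes and leaving out uneven spots could not move a difference of these genes. Fitting only the groups compared, averaging the DIFF arrays or leaving out an array of the third medium could change only the p-values. The changes of sign were all of differences that had not passed. Wwtr1 in DIFF against NoRX became 0.13 with median centring, 0.0010 with the replicate block, -0.084 to 0.035 with 1 array left out, 0.00025 with the 75th percentile taken without outlier spots and 0.0086 with it taken over matched probes. Lats2 became -0.10 with the slide row as a block and -0.028 to 0.26 with 1 array left out in DIFF against NoRX, and 0.091 with median centring and -0.22 to 0.064 with 1 array left out in DIFF against CM. Each of these left-out changes of sign came with a DIFF array. The 2 scalings by another 75th percentile were chosen after seeing the data.

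The genes called fell to 2987 in DIFF against NoRX and 5314 in DIFF against CM with array weights, and to 4795 in CM against NoRX and 2803 in DIFF against NoRX with the slide row as a block. The array weights were 0.157 for each DIFF array and 1.40 to 2.53 for the CM and NoRX arrays, so both DIFF arrays counted less. The causes of the changes in these counts were not tested. Median centring moved the median of all genes to 0.05 in DIFF against NoRX and 0.06 in DIFF against CM, and gave 2401 higher and 2133 lower calls, against 1965 and 3949, and 3932 higher and 3183 lower, against 3311 and 4987. With 1 array left out, 6105 to 9306 genes and 8 to 9 of the 10 were called in CM against NoRX, 4730 to 8485 and 5 to 7 in DIFF against NoRX, and 7339 to 9784 and 9 of the 10 in DIFF against CM. A lone DIFF array is then assumed to vary like the other media. Without DIFF replicate 1, 1753 genes were higher and 6732 lower in DIFF than in NoRX.

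Samples with the same replicate number had correlations of their deviations over genes of 0.087 and 0.175 between DIFF and CM. These correlations were -0.024 and -0.025 between DIFF and NoRX, and -0.007, 0.009 and -0.057 between CM and NoRX. Samples of different media with different numbers had correlations from -0.175 to 0.078. The DIFF arrays deviated from their mean by equal and opposite amounts, so their correlations with any other array differed only in sign. Whether samples with the same number share more than the number therefore cannot be decided from these values. With the replicate block 6860 genes were called in CM against NoRX, 5286 in DIFF against NoRX and 7763 in DIFF against CM, and 8, 6 and 9 of the 10. Signals near background limit the dimmer Tead1 and Lats2 probes and Edn1.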
